A study of Mus musculus with 11 samples.

Results

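The genes described here are 6 members of the metabotropic glutamate receptor family, Grm2, Grm3, Grm4, Grm5, Grm7 and Grm8, taken by gene symbol from the deposited gene count tables of mouse hippocampus. They are 6 of 24391 rows in the table of the heterozygous round and 6 of 24015 in that of the homozygous round. All mice were C57BL/6N, the tissue was hippocampus at postnatal day 32 by the methods (the labels say adult), and the mutants carried a constitutive deletion of the Scn1a 1b regulatory interval, kept as 1 CRISPR/Cas9 line backcrossed to C57BL/6N. WT mice carried no engineered allele. The heterozygous round compared 4 mice with 1 deleted allele (1b+/-, labelled HT, 3 males and 1 female) with 3 WT males on paired-end reads. The homozygous round compared 2 mice with both alleles deleted (1b-/-, labelled KO, 1 male and 1 female) with 2 other WT mice, both female, on shorter single-end reads. Each library was 1 bulk sample labelled hippocampus, dissected from one hemisphere, so a lower share of a cell type and less RNA per cell cannot be told apart.

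Glutamate acts on metabotropic receptors, which signal through G proteins and set the strength of synapses over longer times than the ion channel receptors do. Group I receptors, here Grm5 (mGlu5), couple to Gq and phospholipase C, sit mostly beside the postsynaptic density and bind Homer scaffold proteins. Group II (Grm2 and Grm3) and group III (Grm4, Grm7 and Grm8) couple to Gi/o proteins and mostly lower transmitter release from axon terminals. In hippocampus, mGlu2 is known for its place on the mossy fibres of dentate granule cells, mGlu3 is also made by astrocytes, and mGlu7 lies in the presynaptic active zone.

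Library totals ran from 22852858 to 28285623 counts in the heterozygous round and from 20667122 to 36145161 in the homozygous round. The lowest count of any of the 6 genes in a library was 237, for Grm8, and counting error was not separated from the spread between mice. Scn1a, the gene whose regulatory interval was deleted, stood at 14% of its WT mean in 1b-/- mice (adjusted p = 0.0211 by edgeR) and at 72% in 1b+/- mice (adjusted p = 0.303 by edgeR), on CPM, the counts scaled to a common library size with TMM factors within a round. The call in 1b-/- mice was lost without WT replicate 1 or WT replicate 2 of that round, when only 1 WT library was left. The log2 fold changes of Scn1a were then -3.00 and -2.64, against -2.83. In 1b+/- mice the log2 fold change was -0.47, and -0.27 without WT replicate 1. The paper, which also used edgeR, reported a significant fall of Scn1a in both genotypes at this age. The libraries also differed in genes of brain regions. The summed CPM of 13 striatal genes was 8277 and 3412 in the WT libraries of the homozygous round, against 250 to 333 in 1b-/- libraries and 200.3 to 415 in the 7 libraries of the heterozygous round. Drd1a, the dopamine D1 receptor, was called lower in 1b-/- mice, by -4.29 on the log2 scale (adjusted p = 0.0207 in edgeR). Drd2, the D2 receptor of striatal projection neurons, stood at 175 and 60.1 CPM in these WT libraries and at 2.81 and 4.76 CPM in 1b-/- libraries. Prox1, a transcription factor that defines dentate granule cells, stood at 15.4 and 14.9 CPM in the same WT libraries and at 49.2 and 56.1 CPM in 1b-/- libraries. C1ql2, a secreted protein of mossy fibre synapses, was near 0 there (1.85 and 1.78 CPM) and at 71.7 and 79.0 CPM in 1b-/- libraries. C1ql2 ran from 33.8 to 47.1 CPM in the heterozygous round, so this defining marker of hippocampal granule cells was nearly absent from the WT libraries of the homozygous round alone. The tissue of these 2 WT libraries is therefore in doubt, and every fold change of 1b-/- mice below is against them. In that round 4 of 5 cholinergic basal forebrain, 1 of 7 interneuron and 2 of 4 neocortical markers were also called lower in 1b-/- mice, and 0 of the oligodendrocyte, microglia, choroid plexus, thalamus or cerebellar granule cell markers were called. Choroid plexus sums spread widest within a genotype, from 57.2 to 13528 CPM in 1b-/- libraries. In the heterozygous round 0 markers of any list were called.

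**Figure D1:**
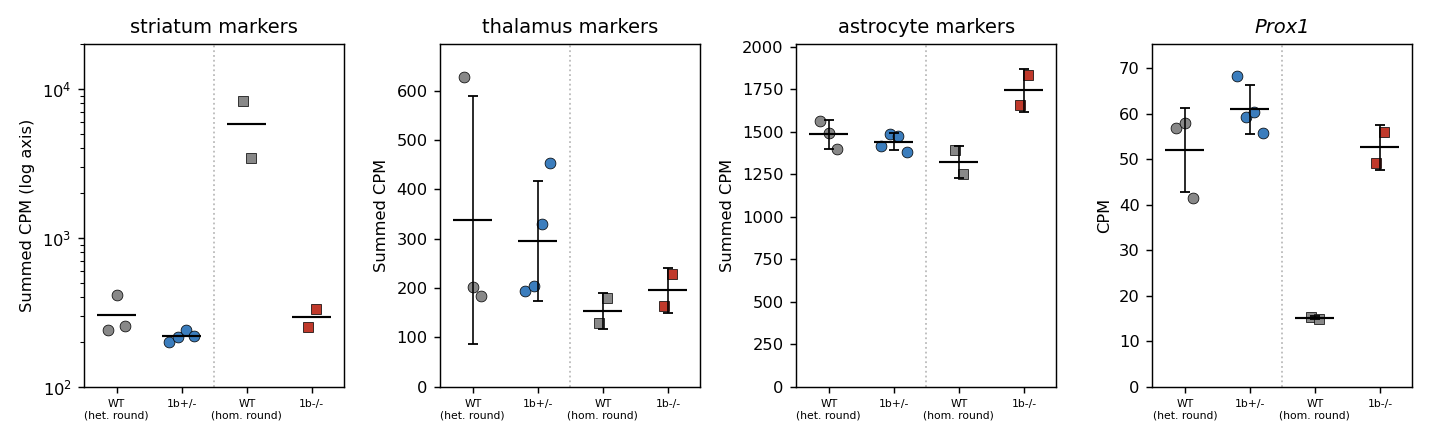
Summed CPM of striatum markers (log axis), of thalamus markers and of astrocyte markers, and CPM of the granule cell gene Prox1, in each library. Points are libraries, horizontal lines are means and error bars are SD (left out on the log axis); the 2 WT libraries of the homozygous round lie at 8277 and 3412 for striatum and at 15.4 and 14.9 CPM for Prox1, apart from all other libraries.

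In mm9, Grm2 (ENSMUSG00000023192.7) is the most compact of the 6 and lies on chromosome 9, minus strand, 106546868 to 106558440, with 1 annotated transcript. Grm3 (ENSMUSG00000003974.4) lies on chromosome 5, 9485236 to 9725352, minus strand, and Grm4 (ENSMUSG00000063239.8) on chromosome 17, 27559332 to 27650286, also minus. Grm5 (ENSMUSG00000049583.7) lies on the plus strand of chromosome 7 from 94750952 to 95283417. Grm7 (ENSMUSG00000056755.6) and Grm8 (ENSMUSG00000024211.9) share chromosome 6, where Grm7 runs on the plus strand from 110595575 to 111517224 and Grm8 on the minus strand from 27225121 to 28085178. The merged exons of Grm7 overlap an antisense transcript by 130 bases and those of Grm8 hold the microRNA gene Mir592, and the exons of the other 4 overlap no other annotated gene. The strand setting of the counting was not given in the sources used here, so reads of Grm7 and of its antisense transcript cannot be told apart in that overlap.

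Levels of different genes were compared as CPM per kilobase of merged annotated exons. In WT mice of the heterozygous round, Grm5 was the most abundant of the 6 at 44.6 ± 3.36 CPM per kb (SD, n = 3). Grm3 followed at 20.2 ± 1.13, Grm2 at 15.9 ± 1.34, Grm7 at 9.89 ± 0.292, Grm4 at 5.0 ± 2.05 and Grm8 at 1.40 ± 0.130 CPM per kb. No neighbours in this order overlapped over the 3 mice. In 1b+/- mice Grm2 and Grm3 stood level, at 21.3 ± 2.32 and 21.3 ± 1.87 CPM per kb (SD, n = 4), while the other 4 kept their places. In WT mice of the homozygous round Grm4 (12.5 ± 5.61), Grm7 (10.2 ± 0.843) and Grm2 (8.89 ± 4.21 CPM per kb, SD, n = 2) overlapped behind Grm5 (32.4 ± 1.86) and Grm3 (27.9 ± 0.669). In 1b-/- mice Grm2 led at 32.8 ± 5.98 CPM per kb (SD, n = 2), above Grm5 at 24.4 ± 2.7 in both mice, with Grm3 (13.5 ± 4.86) overlapping Grm7 (10.8 ± 0.682). Per length of the longest transcript, the order was kept in both WT groups, Grm3 (21.5) came above Grm2 (21.3 CPM per kb) in 1b+/- mice, and in 1b-/- mice Grm7 (15.1) passed Grm3 (13.7 CPM per kb). Exon models set these values, and Grm8 was the lowest of the 6 in all 4 groups with either length.

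The first comparison asked how loss of 1 copy of the interval goes with receptor expression in hippocampus. Grm2 was the only one of the 6 whose 1b+/- and WT mice did not overlap. It stood at 81.7, 63.6, 68.5 and 69.7 CPM in 1b+/- replicates 1 to 4, and at 56.8, 48.1 and 53.9 CPM in WT replicates 1 to 3. Every 1b+/- mouse lay above every WT mouse, and replicate 1 was the highest mutant. Grm2 was 1.34-fold higher in mean, and its log2 fold change of 0.42 had a standard error (SE) of 0.09. By edgeR's quasi-likelihood fit its p was 9.7e-04 before and 0.144 after adjustment, so Grm2 did not pass the threshold of 0.05. The exact permutation test (two-sided) gave p = 0.0286, the smallest this design allows. At that threshold the quasi-likelihood test called none of the 6 receptor genes and 0 of all 14630 genes tested (0%), with 1649 at an unadjusted p under 0.05. Groups did not overlap for 10.9% of all genes, and for 4.69% with the mutants higher.

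Grm2 passed with other tests. It had an adjusted p of 0.0054 by edgeR's likelihood ratio test, which called 1.31% of all genes, and of 0.0013 by DESeq2, which called 1.74%. Without WT replicate 1 its adjusted p was 0.0389 by the quasi-likelihood test, where 2.89% of all genes were called. In each of these fits Grm2 was the 1 receptor gene called, higher in 1b+/- mice. Over the 15 alternatives its log2 fold change lay between 0.35 and 0.48 and its adjusted p between 0.0013 and 0.9999, the last with all 11 libraries in 1 fit. Striatal markers were also lower in 1b+/- mice (200.3 to 239 summed CPM, against 240.2 to 415 in WT mice). Prox1 overlapped, at 55.7 to 68.4 CPM in 1b+/- and 41.5 to 57.9 CPM in WT mice, as did C1ql2, at 34.4 to 47.1 and 33.8 to 37.9 CPM, and the sum of the 6 granule cell markers, at 267.3 to 299 and 267.6 to 323 CPM. Calb1 and Plk5 of that list were lower in every 1b+/- mouse than in any WT mouse, at 116 to 124 against 133 to 176 CPM and at 8.03 to 9.98 against 10.3 to 16.1 CPM, and neither passed the test. Interneuron markers summed to 658 to 728 CPM in 1b+/- and 747 to 866 CPM in WT mice, and CA3 markers to 88.2 to 107 and 81.2 to 86.7 CPM, also without overlap. The part of all these markers in the Grm2 difference was not tested.

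The other 5 genes overlapped between 1b+/- and WT mice. Grm3, the other group II receptor, stood at 69.2 to 82.0 CPM in 1b+/- mice and at 68.3 to 76.4 CPM in WT mice, a log2 fold change of 0.08 (SE 0.07). Grm5 was the steadiest in mean, at 358 ± 19.2 CPM (SD, n = 4) against 360 ± 27.1 CPM (SD, n = 3), with a log2 fold change of -0.01 (SE 0.06). Its direction flipped with upper-quartile scaling and with sex as a covariate, which in effect left out the only female of the round, 1b+/- replicate 4. Grm7 stood at 58.7 to 65.0 CPM against 56.7 to 60.1 CPM, a log2 fold change of 0.10 (SE 0.05). Grm8 stood at 9.85 to 12.1 CPM against 10.3 to 12.1 CPM, with 0.06 (SE 0.10). The adjusted p of these 4 genes ran from 0.478 for Grm7 to 0.975 for Grm5 by edgeR's quasi-likelihood fit.

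Grm4, a presynaptic group III receptor, had the widest relative spread of the 6 in WT mice of this round. It stood at 39.1, 19.3 and 21.3 CPM in WT replicates 1 to 3 and at 28.1, 26.1, 33.8 and 38.7 CPM in 1b+/- replicates 1 to 4. The groups overlapped because WT replicate 1 was the highest of all 7 libraries. Its fold change on the log2 scale, 0.25 with an SE of 0.24, had an adjusted p of 0.734 by edgeR. Without WT replicate 1 it was 0.64 (adjusted p = 0.0666 by edgeR), and without WT replicate 2, WT replicate 3 or 1b+/- replicate 4 it was 0.07, 0.11 or 0.13, so its size turned on single libraries. The same library had the highest sum of 5 thalamus markers, 628 CPM against 201 and 183 CPM in the other WT mice. Among 1b+/- mice, replicates 3 and 4, the highest in Grm4, were also the highest in that sum (329 and 453 CPM, against 195 and 205 CPM). Tcf7l2, a transcription factor of thalamic neurons, stood at 61.3 CPM in WT replicate 1 and 43.8 CPM in 1b+/- replicate 4, and at 8.30 and 8.51 CPM in the other WT mice. Prkcd, a protein kinase C abundant in thalamus, stood at 170 CPM and 99.4 CPM in the first pair and at 22 and 13.2 CPM in the second. The part of thalamic RNA in Grm4 levels was not tested.

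**Figure D2:**
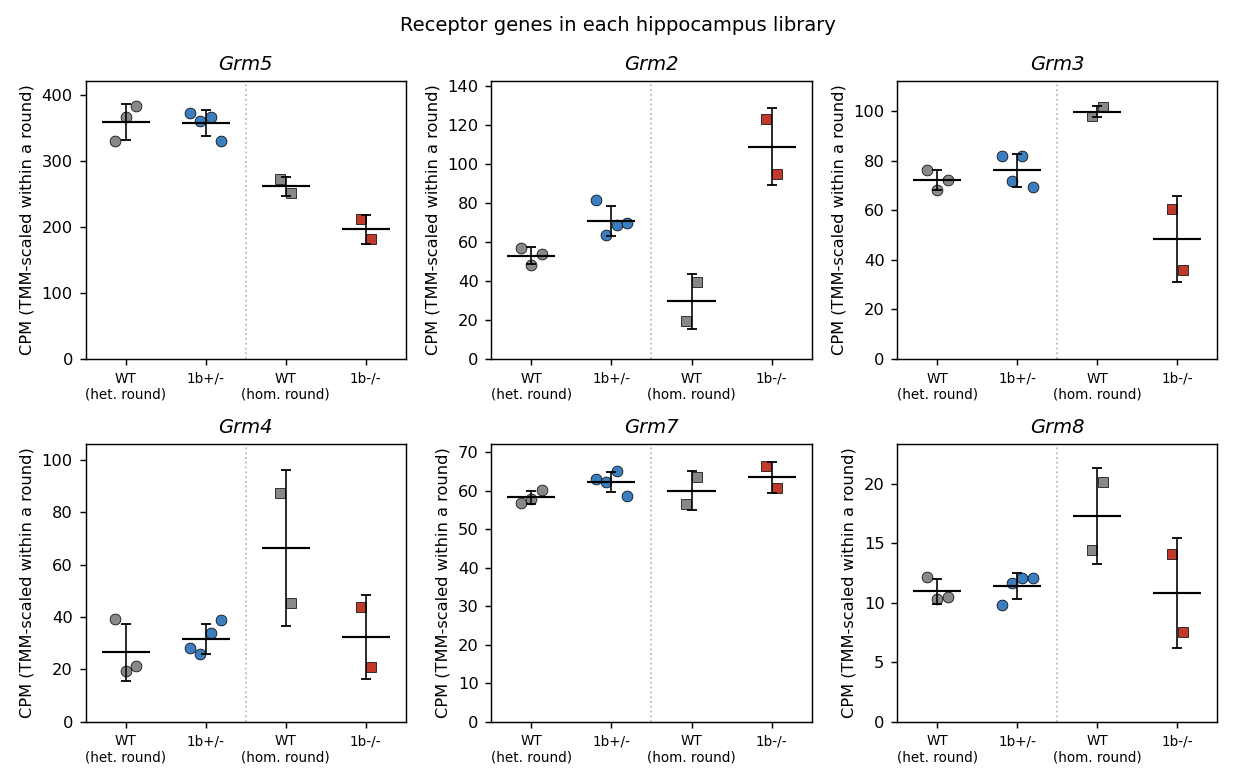
CPM (TMM-scaled within a round) of each receptor gene in every library; points are libraries, horizontal lines are means, error bars are SD and the dotted line parts the rounds. Grm2 is higher in mutants in both rounds without overlap, from 63.6 to 81.7 CPM in 1b+/- and 94.9 and 123 CPM in 1b-/- mice, while Grm7 stays between 56.5 and 66.3 CPM in all libraries.

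The second comparison asked the same of loss of both copies. Grm2 stood at 123 and 94.9 CPM in 1b-/- mice and at 19.6 and 39.4 CPM in WT mice. Both mutants lay above both WT mice, and the means were 109 ± 19.9 CPM and 29.5 ± 14 CPM (SD, n = 2 each). Grm2 was thus 3.69-fold higher in mean, and the log2 fold change of 1.88 had an SE of 0.35. By edgeR's quasi-likelihood fit its adjusted p was 0.0579, just above the threshold. Of the 6 receptor genes 0 were called by that fit, against 3.58% of the 14838 genes tested (2.06% higher and 1.52% lower in 1b-/- mice). An unadjusted p under 0.05 was found for 3 of the 6 and for 3922 of the 14838 genes. The two-sided exact permutation test cannot go below p = 0.333 with 2 mice against 2, and it gave that value for each of the 5 receptor genes without overlap. Groups did not overlap for 59.7% of all genes in this round.

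Grm2 was called in 8 of 12 alternatives for this comparison, always higher in 1b-/- mice. Its adjusted p was 3.4e-05 by edgeR's likelihood ratio test, which called 12.3% of all genes, and 6.5e-07 by DESeq2, which called 14.4%. It was 0.0215 without a filter on low counts (5.42% of genes called), 0.0370 with sex as a covariate (4.87%) and 4.7e-04 with all 11 libraries in 1 fit (37.2%), all by edgeR's quasi-likelihood test. The log2 fold change ran from 1.47 to 2.47 over the 12 alternatives. Without WT replicate 1, the library highest in striatal markers, it was 1.47. Grm2 was not called in that fit, which left only 1 WT library. Prox1 and C1ql2, made by the granule cells whose mossy fibres carry mGlu2, were also higher in both 1b-/- mice. The 6 granule cell markers summed to 277 and 281 CPM in 1b-/- and 178 and 166 CPM in WT libraries, but Calb1 (95.9 ± 13.3 against 136 ± 6.94 CPM) and Plk5 (11.4 ± 0.456 against 16.8 ± 2.99 CPM) were lower in both 1b-/- mice and did not pass the test. The part of these markers in the Grm2 difference was not tested. Groups did not overlap, with the mutants higher in each round, for Grm2 and for 1.24% of the 14151 genes tested in both. In the heterozygous round alone this held for 4.69% of genes. In the homozygous round groups did not overlap in either direction for 59.7%. The rounds used separate WT mice, and the tissue of those in the homozygous round is in doubt.

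Grm3 lay in the other direction in 1b-/- mice. It stood at 60.7 and 36.1 CPM there and at 98.1 and 101.5 CPM in WT mice, without overlap. Of all genes in this round, 59.7% also had no overlap, in either direction. The WT mice lay close together, while the 1b-/- male (replicate 1) was well above the female. Its log2 fold change, -1.04 with an SE of 0.26, had an adjusted p of 0.088 by edgeR's quasi-likelihood fit. It passed in 5 of 12 alternatives, with 0.0065 by the likelihood ratio test (12.3% of all genes called) and 0.0022 by DESeq2 (14.4%). The fit of all 11 libraries, where it also passed, called 37.2% of all genes. Sex as a covariate, which in effect left out the 1b-/- male, gave a log2 fold change of -1.468. Without that mouse it was -1.467, and the 2 count as separate alternatives. Markers of astrocytes, one of the cell types that make mGlu3, summed to 1656 and 1834 CPM in 1b-/- and 1391 and 1254 CPM in WT libraries, with 0 of the 9 passing the test. That rise in the sum came from Gfap, a filament protein of astrocytes, at 471 and 853 against 206 and 158 CPM. The other 8 summed to 1184 and 981 CPM in 1b-/- and 1185 and 1096 CPM in WT libraries. Of these, Aldh1l1 stood at 76.3 and 61.2 CPM in 1b-/- and 86.6 and 76.7 CPM in WT libraries, and Aqp4, the water channel of astrocyte endfeet, at 211 and 224 against 203 and 201 CPM. Their part in the Grm3 difference was not tested. Counts per length of Grm2 and Grm3 within a library, which need no scaling between libraries, had a log2 ratio of 1.13 and 1.5 in 1b-/- mice and of -2.21 and -1.26 in WT mice. In the heterozygous round that ratio ran from -0.15 to 0.12 in 1b+/- mice and from -0.40 to -0.31 in WT mice. It was higher in each mutant than in any WT mouse of its round. The ratio was chosen with results of these data known and has no test.

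Grm5, Grm4 and Grm8 were lower in both 1b-/- mice than in either WT mouse, and none of the 3 passed the test. Non-overlap of the groups, in either direction, was found for 59.7% of all genes in this round. Striatal markers summed to 250 and 333 CPM in these 1b-/- libraries and to 8277 and 3412 CPM in the WT libraries. Their part in the 3 differences was not tested. Grm5 stood at 212 and 181 CPM against 272 and 251 CPM, or -0.41 on the log2 scale (SE 0.14, adjusted p = 0.148 by edgeR). It was called with all 11 libraries in 1 fit (adjusted p = 0.0097 by edgeR), which called 37.2% of all genes. Grm4 stood at 43.7 and 20.9 CPM against 87.4 and 45.2 CPM, or -1.04 (SE 0.45, adjusted p = 0.222 by edgeR). Its groups nearly touched, at 43.7 and 45.2 CPM. The higher WT value was that of replicate 1, the library with the higher striatal sum. Without that WT library the log2 fold change of Grm4 was -0.48, and without 1b-/- replicate 1 or 2 it was -1.66 or -0.60. Grm8 stood at 14.1 and 7.52 CPM against 14.5 and 20.1 CPM, or -0.68 (SE 0.35, adjusted p = 0.281 by edgeR). The groups of Grm8 nearly touched too, at 14.1 and 14.5 CPM, and its log2 fold change was -1.20 without 1b-/- replicate 1, -0.29 without 1b-/- replicate 2 and -0.42 without WT replicate 2.

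Grm7 was the exception. It stood at 66.3 and 60.6 CPM in 1b-/- mice and 56.5 and 63.5 CPM in WT mice, so the groups overlapped, with 0.08 on the log2 scale (SE 0.13, adjusted p = 0.730 by edgeR). Over all 11 libraries, each scaled within its round, it ranged only from 56.5 to 66.3 CPM. The WT libraries that stood apart in striatal and granule cell markers lay inside or next to the range of the other 9 for Grm7.

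Levels scaled over all 11 libraries set the rounds side by side, although read type differed between them and no test was made. On this scale Grm2 averaged 29.1 CPM in WT mice of the homozygous round, 54.4 in WT mice of the heterozygous round, 72.8 in 1b+/- and 107 CPM in 1b-/- mice. Both 1b-/- libraries (92.2 and 121 CPM) were above every library of the heterozygous round, whose highest was 83.9 CPM. Grm3 averaged 98.2 and 74.2 CPM in the WT groups in the same order and 47.4 CPM in 1b-/- mice. Grm5 averaged 257 and 370 CPM in the WT groups and 193 CPM in 1b-/- mice. For Grm4 the 1b-/- mean of 31.7 CPM was close to the WT mean of the heterozygous round, 27.3 CPM, and below that of the homozygous round, 65.2 CPM. Grm8 averaged 10.6 CPM in 1b-/- mice, 11.3 in WT mice of the heterozygous round and 17 CPM in those of the homozygous round. For Grm2, Grm3 and Grm5, 1b-/- libraries lay on the same side of the WT libraries of both rounds. The share of all genes for which this held was not counted. WT libraries of the homozygous and heterozygous rounds were themselves apart for these genes. They lay at 19.3 to 38.9 and 49.4 to 58.3 CPM for Grm2. For Grm3 the ranges were 96.4 to 100 and 70.2 to 78.4 CPM, and for Grm5 247 to 267 and 339 to 394 CPM.

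The difference between the changes, 1b-/- minus 1b+/-, was tested with all 11 libraries. It passed for 3 of the 6 genes, against 27.3% of 14905 genes tested. For Grm2 the change was higher by 1.46 on the log2 scale in 1b-/- than in 1b+/- mice (SE 0.32, adjusted p = 0.0082 by edgeR's quasi-likelihood fit). For Grm3 the difference was -1.13 (SE 0.24, adjusted p = 0.0072 by edgeR), and for Grm5 -0.41 (SE 0.13, adjusted p = 0.0385 by edgeR). Without 1b-/- replicate 1, 5 of the 6 passed, Grm7 being the exception, and 26.3% of all genes did. Grm2 and Grm3 passed in all 18 alternatives, and Grm5 in 10 of 18. The Grm5 call was lost with no filter and without WT replicate 1 or 2 or 1b+/- replicate 1, 2 or 3 of the heterozygous round, or WT replicate 1 or 1b-/- replicate 2 of the homozygous round, where its adjusted p reached 0.127. Grm4 (-1.29), Grm8 (-0.74) and Grm7 (-0.02) had adjusted p-values of 0.0977, 0.118 and 0.890 by edgeR. The WT libraries of the homozygous round enter this test, and what their striatal and granule cell markers contribute was not tested.

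**Figure D3:**
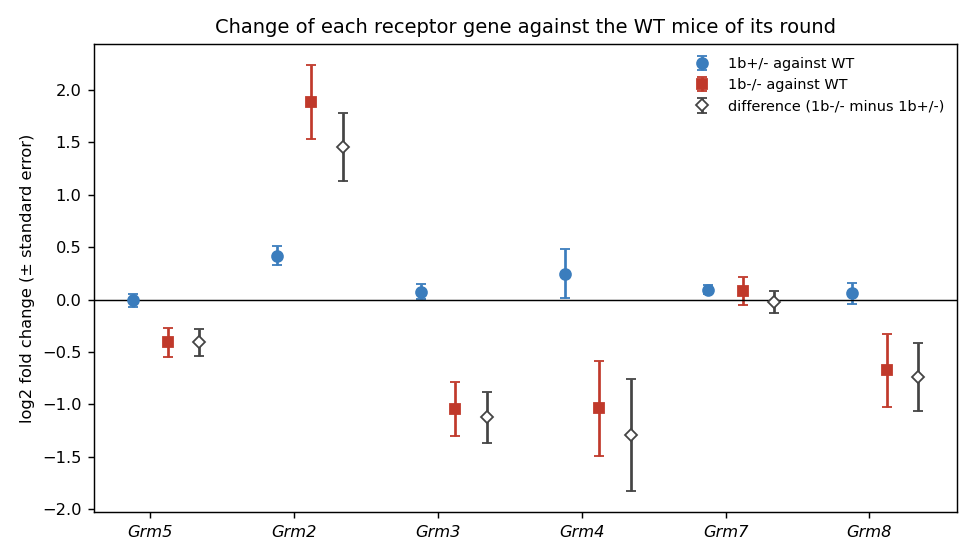
Log2 fold change of each receptor gene against the WT mice of its round, in 1b+/- (circles) and 1b-/- mice (squares), with the difference between them (diamonds); bars are standard errors from edgeR. Grm2 lies above 0 in both comparisons (0.42 and 1.88), Grm3 lies at 0.08 and -1.04, and Grm7 stays near 0 in all 3.

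Summed per length over the 6 genes, receptor expression overlapped between 1b-/- and WT mice, while the shares of all but Grm7 did not. In CPM, groups did not overlap for 59.7% of all genes in this round. Shares are parts of the same sum, so a higher Grm2 share lowers the rest. The tissue of these WT libraries is also in doubt. The sum was 88.9 ± 17.8 CPM per kb in 1b-/- and 94.1 ± 1.24 CPM per kb in WT mice (SD, n = 2 each). Grm2 made up 36.5% and 37.4% of that sum in 1b-/- mice and 6.23% and 12.7% in WT mice. The share of Grm3 was 16.7% and 13.2% against 28.9% and 30.4%, and that of Grm5 25.9% and 29.5% against 35.5% and 33.4%. The group II sum was 46.3 ± 10.8 against 36.8 ± 4.88 CPM per kb, and the mice overlapped. The group III sum, 18.2 ± 4.31 against 24.9 ± 4.26 CPM per kb, was lower in both 1b-/- mice. In the heterozygous round the Grm2 share ran from 19.0% to 22.2% in 1b+/- mice and from 15.5% to 17.5% in WT mice. The group II sum ran from 39.2 to 47.5 CPM per kb against 33.6 to 38.5 CPM per kb. These sums and shares are descriptions of the same counts and carry no test.

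**Figure D4:**
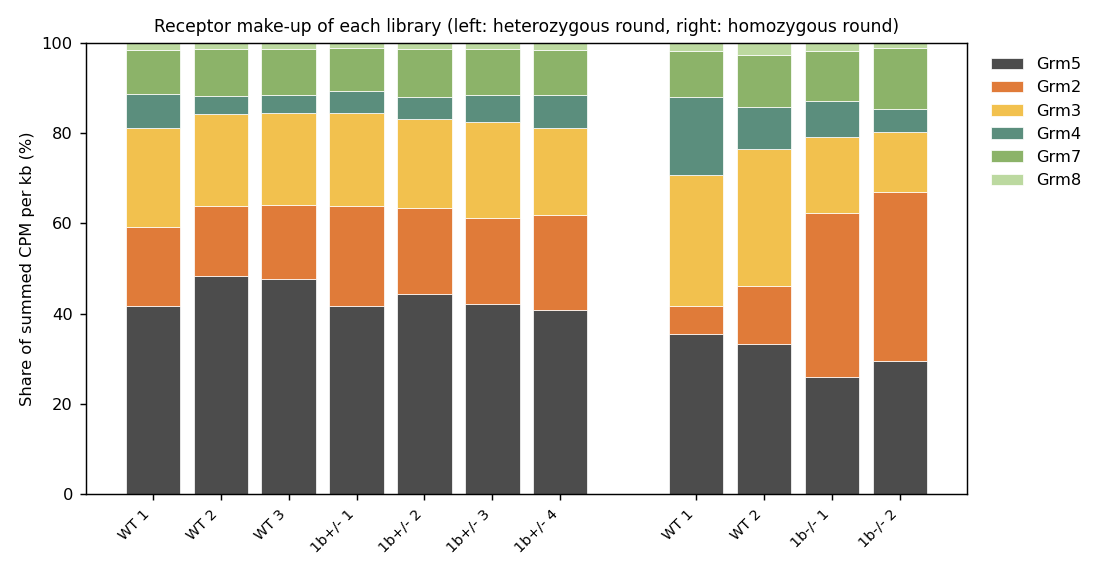
Share of each receptor gene in the summed CPM per kb of the 6 genes, in every library, as stacked bars from 0 to 100%. The Grm2 band widens from 6.23% and 12.7% in WT mice of the homozygous round to 36.5% and 37.4% in 1b-/- mice, and Grm5 is the largest band in the heterozygous round.

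Genes that act with these receptors were taken in 4 lists, 51 genes in all, and each was tested in both rounds. In 1b+/- mice 0 of the 51 were called by the quasi-likelihood test, and their median log2 fold change was 0.01. An unadjusted p under 0.05 was found for 9 of the 51 and for 1649 of all 14630 genes. DESeq2 called 2 of the 51 and 1.74% of all genes. The gene with the smallest p in each list was Prkcb, a protein kinase C, with a log2 fold change of 0.22, and Shank1, a postsynaptic scaffold that binds Homer, with 0.16. For the Gi/o list it was Adcy5, an adenylyl cyclase abundant in striatum, with -0.24, and for the last list Elfn1, a postsynaptic adhesion protein that recruits mGlu7, with -0.26. Their adjusted p-values ran from 0.176 to 0.273 by edgeR.

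In 1b-/- mice 7 of the 51 were called, 3 higher and 4 lower, 13.7% against the 3.58% of all genes. In the Gq list 2 of 10 were called and the median log2 fold change was 0.18, against 0.00 over all genes. Itpr1, the inositol trisphosphate receptor of the endoplasmic reticulum, fell from 775 ± 24.2 to 318 ± 41.3 CPM (-1.28, adjusted p = 0.0290 by edgeR). The scaffold list also had 2 of 12 called, its median was 0.46, and the called members were both of the Homer family. Homer3 rose from 6.29 ± 0.296 to 55.8 ± 22.7 CPM (3.15, adjusted p = 0.0223 by edgeR) and Homer1 fell from 171 ± 8.81 to 63.9 ± 11.1 CPM (-1.42, adjusted p = 0.0251 by edgeR), each with n = 2.

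In the Gi/o list 2 of 16 were called, both lower, and the median was 0.16. Rgs4, a regulator that speeds the return of Gi/o and Gq proteins to rest, fell from 981 ± 165 to 206 ± 11.9 CPM (-2.25, adjusted p = 0.0204 by edgeR). Adcy5 fell from 712 ± 399 to 128 ± 5.94 CPM (-2.48, adjusted p = 0.0473 by edgeR). Of the 13 genes for adhesion partners, glutamate supply and uptake 1 was called. This was Elfn2, an adhesion protein that binds group III receptors, which rose from 86.6 ± 0.476 to 157 ± 16.5 CPM (0.86, adjusted p = 0.0371 by edgeR). Without WT replicate 1 of this round 0 of the 51 were called by edgeR's quasi-likelihood test, as were 0% of all genes, of which 3861 had an unadjusted p under 0.05. Without WT replicate 2, 4 of the 51 and 1.31% of all genes were called. In this round 10 of 13 striatal markers were called lower in 1b-/- mice, and 2 of 6 granule cell, 1 of 4 CA1 and 2 of 4 CA3 markers were called higher. Their part in the changes of these partner genes was not tested.

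As a description, the genes most like each receptor gene were found by Pearson's r of log2 CPM over the 11 libraries after the mean of each round was taken out, among 13691 genes. These r values rest mainly on the wide spread within the homozygous round, whose libraries share the region differences given above. Shank1 (0.99) and Tmem74 (0.98) were most like Grm2, and over the 7 libraries of the heterozygous round alone they had 0.84 and 0.94. Grik3 and Mxd1 were most like Grm3 (0.98 each), with 0.67 and 0.53 in the heterozygous round. Scrt1 (0.98) and Zfp385a (0.96) were most like Grm4, with 0.98 and 0.91 in the heterozygous round. For Grm5 these were Cecr6 (0.98) and B3galt1 (0.97), for Grm7 Tmem70 (0.98) and Ipmk (0.90), and for Grm8 Lasp1 (0.98) and Cabyr (0.97).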

How the data were processed

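Hippocampus of 11 mice was sequenced in 2 rounds. The authors deposited raw counts per gene, made by alignment to mm9 with STAR 2.7.2 and featureCounts, with no normalization. Columns were matched to samples by library name, since the file named in the labels is not the one that holds them, and 0 columns were left unused. Each table holds 27 symbols turned into dates, kept within a round and left out of the joined table. The counts went into edgeR 4.0.16 under R 4.3.3 (at least 1 CPM in at least 1 library, TMM factors, glmQLFTest on genotype within a round, Benjamini-Hochberg adjustment over all genes, threshold 0.05). The standard error (SE) of a fold change was its size on the log2 scale divided by the square root of F. The difference between genotypes used all 11 libraries in 4 groups. Exon lengths came from GENCODE vM1 on NCBIM37, the assembly of mm9. Alternatives were the likelihood ratio test, upper-quartile or RLE factors, no filter on low counts, filterByExpr, DESeq2 1.42.0, sex, all 11 libraries and each library left out. The code was tested on simulated data.

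Members and lists were chosen with earlier results of these data known. All receptor genes, Scn1a, partner genes past the threshold (up to 4 a list and comparison, or else the 1 of smallest p), the first 2 genes of marker lists set beside a result, and the 2 genes most like each receptor gene were named. Gfap, Calb1 and Plk5, and the astrocyte sum without Gfap, were added after their values were seen. Labels do not say whether mice shared litters, and the p-values treat the mice as independent. Other members of the family were not analysed here. One partner gene that the rule names is not reported here.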

Additional observations from a re-analysis of the deposited data

Results flagged for a closer look

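The change in 1b-/- mice differed from that in 1b+/- mice for Grm2 (1.46 on the log2 scale, 1b-/- minus 1b+/-, adjusted p = 0.0082), Grm3 (-1.13, adjusted p = 0.0072) and Grm5 (-0.41, adjusted p = 0.0385), by edgeR's quasi-likelihood test of the difference in all 11 libraries. Scn1a also differed (-2.36, adjusted p = 8.7e-04 by edgeR). Of all genes, 27.3% passed this test. The WT libraries of the homozygous round, whose tissue is in doubt, enter it. Among the 4 mice of the 1b+/- group, no library stood far enough from the others in any of the 6 receptor genes or Scn1a to be singled out.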

How the results depend on the processing

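With 2 mice per genotype in the homozygous round, calls turned on the test. In 1b+/- mice, receptor genes called went from 0 to 1 with the likelihood ratio test and with DESeq2, and partner genes from 0 to 2 with DESeq2. These fits called 1.31% and 1.74% of all genes. In 1b-/- mice, receptor genes called went from 0 to 1 with no filter and to 2 with the likelihood ratio test or DESeq2. With all 11 libraries in 1 fit they numbered 3. Sex as a covariate in effect left 1 mutant of each round out, 1b+/- replicate 4 or 1b-/- replicate 1. Partner genes called in 1b-/- mice went from 7 to 11, 19, 23 and 28 with no filter, the likelihood ratio test, DESeq2 and all 11 libraries. These fits called 5.42%, 12.3%, 14.4% and 37.2% of all genes, against 3.58% where 7 were called. Leaving out 1 library at a time gave 0 to 1 receptor and 0 to 1 partner genes in 1b+/- mice, 0 to 2 and 0 to 8 in 1b-/- mice, and 2 to 5 receptor genes for the difference, with 5 when 1b-/- replicate 1 was left out. In 1b+/- mice both calls came without WT replicate 1, where 2.89% of all genes were called, against 0% with no library left out. In 1b-/- mice the lowest counts came without WT replicate 1 and the highest without 1b-/- replicate 1. The number of all genes called in that round was also lowest and highest in these fits, each of which left 1 mouse in a group. The causes were not tested. Grm5 in 1b+/- mice reversed to 0.0018 with upper-quartile factors and 0.029 with sex as a covariate, and ran from -0.067 to 0.039 with a library left out. The Grm7 difference ran from -0.11 to 0.059 with a library left out. No receptor gene past the threshold changed direction. Per length of the longest transcript, WT levels of Grm5, Grm7 and Grm8 moved to 52.2, 13.8 and 2.28 CPM per kb in the heterozygous and 37.9, 14.3 and 3.60 in the homozygous round. No paired analysis was possible because the labels give no replicate numbers shared between genotypes.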
